A study of Mus musculus with 16 samples.

Results

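Loss of Aire was examined in mTEChi, the fraction of medullary thymic epithelial cells (mTECs) with high surface MHC class II, by comparing ATAC-seq signal in Aire-/- with that in Aire+/+ mice. The members were all regions of the deposited table with a mean signal of at least 7.5 over the 4 Aire-line mTEChi libraries, which gave 216911 of 250313 regions. Each region is 500 bp long, lies on one of 19 autosomes or chromosome X, and carries mm9 coordinates. The groups were Aire-/- mTEChi and Aire+/+ mTEChi, from C57BL/6 mice 4 weeks old, with 2 libraries each. The same study holds Brg1-/- and Brg1+/+ mTEChi, and mTEClo cells (low MHC class II) of all 4 genotypes, again with 2 libraries each and the same labelled strain and age. Column names of the Brg1+/+ libraries begin with NOCRE, so Cre may be present in only one of the Brg1 genotypes. The labels describe neither the Aire allele nor whether replicate libraries are from different animals, so every p-value reflects the spread between these libraries, and that spread may be technical.

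Medullary epithelial cells display proteins of many peripheral tissues to developing T cells, and T cells that react to them are deleted or diverted. Aire is a nuclear protein that allows much of this tissue-restricted transcription; it is found mostly in mTEChi and is absent from most mTEClo. It is known to act with chromatin and with paused RNA polymerase rather than as a classical factor bound to one DNA motif, and people or mice without it develop autoimmunity. ATAC-seq reads accessibility through Tn5, a transposase that inserts adapters into open DNA. The signal of a region in sorted cells does not tell a region that is partly open in every cell from one that is open in some of them.

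The threshold kept some regions through 1 genotype alone. Both genotype means were at least 7.5 in 175105 members (80.7%), only the Aire-/- mean in 13441 (6.20%) and only the Aire+/+ mean in 28365 (13.1%). The member nearest the threshold had a mean of 7.5002, from 8.08 in Aire-/- and 6.92 in Aire+/+, and the nearest region left out one of 7.49988, from 5.62 in Aire-/- and 9.38 in Aire+/+. Regions were not linked to genes here, because the gene table at hand is for another assembly, so neither accessibility at the Aire locus nor at marker genes of mTECs was checked, and the genotypes and cell types rest on the labels.

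The 4 libraries did not have equal precision. Across members, log2(signal + 1) correlated with Pearson's r of 0.761 between the Aire-/- replicates and 0.492 between the Aire+/+ replicates, as a description over regions, which are not independent. Aire+/+ replicate 2 had r between 0.487 and 0.546 with each of the other 7 mTEChi libraries. The SD of the difference between replicates was 0.96 log2 units in Aire-/- and 1.36 in Aire+/+, against 1.21 in Brg1-/- and 1.15 in Brg1+/+. Aire+/+ replicate 2 was the highest of the 8 mTEChi libraries at 20.7% of members, and 1367 members were listed at 0 in it and in no other mTEChi library. The 99th percentile of signal lay between 213.9 and 217.3 in the 8 mTEChi libraries. Depth is unknown, so no counting interval accompanies the signal.

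No member region was called between Aire-/- and Aire+/+ mTEChi (0 of 216911, or 0%, at a limma adjusted p under 0.05; smallest adjusted p = 0.327). At an unadjusted p under 0.05 there were 15906 regions (7.33%), of which 8410 (3.88%) were higher and 7496 (3.46%) lower in Aire-/-. The median log2 fold change over all members was -0.01, and the 5th and 95th percentiles were -1.64 and 1.46. An absolute log2 fold change of at least 1 was reached by 26011 regions higher in Aire-/- and by 30403 lower, and one of at least 3 by 261 and 463. Both Aire-/- libraries lay above both Aire+/+ libraries at 40651 regions (18.7%) and below both at 41288 (19%).

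The spread set what could be seen. The median SE of a region's log2 fold change was 0.84. In simulated data with the spread of each group, 200 of 216911 regions were changed, all at or above the median of mean log2 signal. The same test recovered 2.99% of regions given a true log2 change of 1, 17.9% at 2 and 45.5% at 3. Most changes of 1 were thus missed in that setting, although 44.8% of them had an unadjusted p under 0.05. Recovery with more regions changed was not tested. The count of 0 depended on the libraries fitted. A fit over all 16 libraries, in which the median SE was 0.74, called 49 regions (25 higher and 24 lower, 0.0226% of members), while the same fit with a separate variance for each sort called 0. Leaving out Aire+/+ replicate 1 gave 119 calls, of which 117 were higher in Aire-/-, and leaving out Aire-/- replicate 2 gave 6; leaving out Aire+/+ replicate 2 or Aire-/- replicate 1 gave 0.

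Since nothing was called, the regions with the smallest p that had non-overlapping groups and a mean at or above the median member are described as values, 12 in each direction. Their adjusted p lay between 0.327 and 0.388 in limma, and their absolute log2 fold changes between 1.03 and 3.99 (higher in Aire-/-) and between 1.01 and 4.36 (lower). They were picked for this difference, so the difference itself is a description; the mTEClo libraries took no part in the choice, and the Brg1-line mTEChi libraries entered it through the estimated variance of each region and its trend with the mean.

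**Figure D1:**
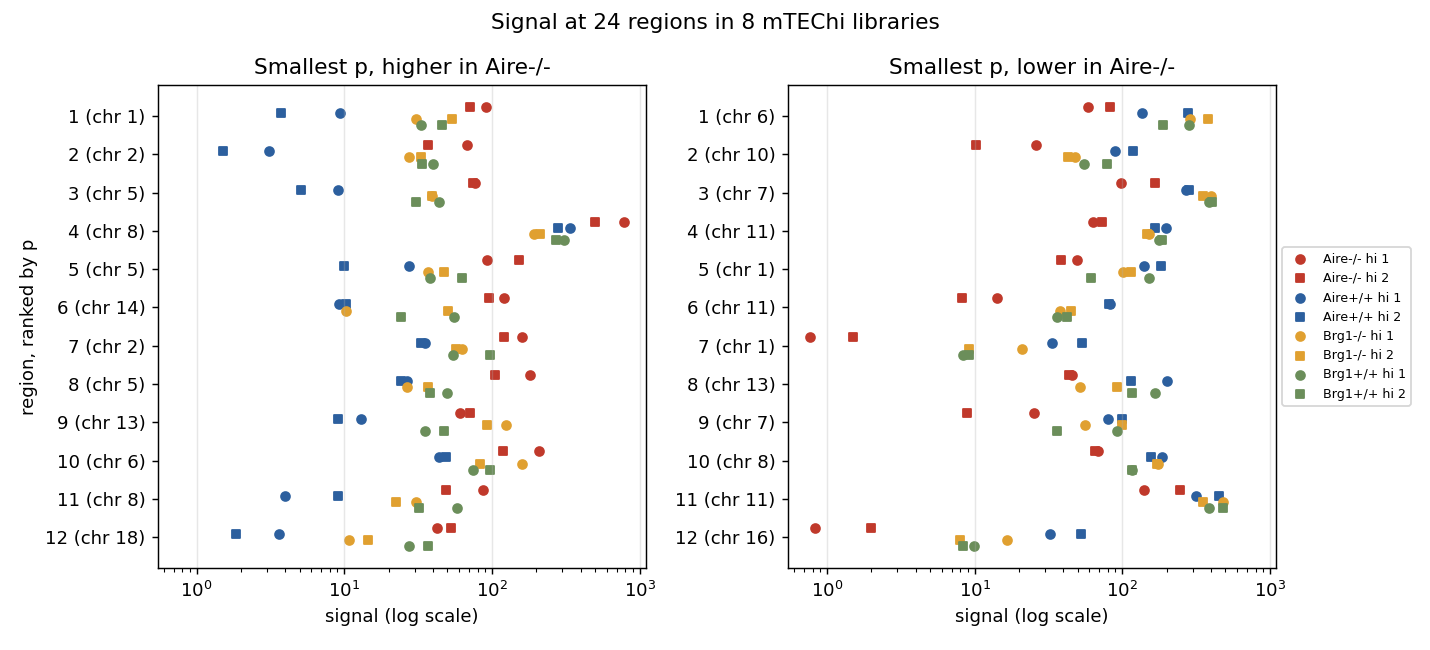
Signal (x axis, log scale) at the 12 regions of smallest p with higher (left) and with lower (right) signal in Aire-/- mTEChi, in each of the 8 mTEChi libraries; rows run from the smallest p down, circles are replicate 1 and squares replicate 2. Both Aire-/- libraries lie outside all 6 other libraries in 8 of the 12 rows on the left and in 12 of 12 on the right.

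Among the regions higher in Aire-/-, the one with the strongest signal was chr8:45541562-45542061. It had 780.2 and 501.7 in Aire-/- mTEChi, against 335.6 and 280.3 in Aire+/+ mTEChi, with a log2 fold change of 1.03 (SE 0.20, unadjusted p = 1.15e-05, adjusted p = 0.327 in limma). Brg1-/- mTEChi had 192.4 and 210.5 and Brg1+/+ mTEChi 305.6 and 273.4, so both Aire-/- libraries were above the 6 others and Aire+/+ was close to Brg1+/+. In mTEClo its signal was 50.5 and 78.7 in Aire-/- and 45.5 and 53.0 in Aire+/+, which is the pattern of a region more open in mTEChi.

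Other regions that were higher in Aire-/- and called more open in mTEChi than in mTEClo in Brg1+/+ cells lay on chromosomes 2, 5, 6 and 8. At chr2:59698356-59698855, Aire-/- mTEChi had 159.5 and 120.2, against 35.5 and 33.0 in Aire+/+ mTEChi (log2 fold change 1.99, SE 0.41). Brg1+/+ gave 54.9 and 96.5 there, between the Aire genotypes. At chr5:9501763-9502262 the values were 181.1 and 104.6 in Aire-/- and 26.4 and 24.2 in Aire+/+ (log2 fold change 2.40, SE 0.50), with 49.7 and 37.9 in Brg1+/+, so that Aire-/- stood alone above all others.

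The region chr6:140155126-140155625 had 208.8 and 119.1 in Aire-/- and 43.6 and 49.1 in Aire+/+ (log2 fold change 1.75, SE 0.37). Its Brg1-/- libraries, 160.0 and 82.9, overlapped the Aire-/- values, so Aire-/- did not stand alone at this region. At chr8:29707178-29707677, Aire-/- had 87.1 and 48.9 and Aire+/+ 3.95 and 9.04 (log2 fold change 3.23, SE 0.69). The Brg1+/+ values there, 58.0 and 32.0, overlapped those of Aire-/-, and the Aire+/+ libraries were the low ones. Aire+/+ mTEClo had 10.2 and 16.1 at this region, so in Aire+/+ cells it was not more open in mTEChi.

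The region of smallest p was chr1:31115691-31116190, with 90.9 and 70.8 in Aire-/- against 9.42 and 3.74 in Aire+/+ (log2 fold change 3.53, SE 0.64, unadjusted p = 4.08e-06). Both Brg1 genotypes lay between them, at 30.8 and 54.0 for Brg1-/- cells and at 33.1 and 45.9 for Brg1+/+ cells. The largest log2 fold change of the 12 belonged to chr2:175001257-175001756, which had 67.5 and 36.6 in Aire-/- and 3.10 and 1.51 in Aire+/+ (3.99, SE 0.75). Here too Brg1+/+, at 40.03 and 33.86, overlapped Aire-/- while Aire+/+ was low. At chr13:23545208-23545707, Aire-/- had 60.5 and 71.2 and Aire+/+ 13.1 and 9.12, while all 8 mTEClo libraries gave 66.8 to 101.9. Brg1-/- mTEChi had 125.5 and 92.3 there and Brg1+/+ mTEChi 35.5 and 47.5, so Aire+/+ mTEChi was the lowest group and Brg1+/+ mTEChi the next.

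The regions lower in Aire-/- included sites that were strong in every other library. At chr7:135754449-135754948, Aire-/- mTEChi had 97.5 and 167.2, against 270.2 and 282.2 in Aire+/+ mTEChi (log2 fold change -1.11, SE 0.22, unadjusted p = 1.57e-05, adjusted p = 0.327 in limma). Brg1-/- had 397.4 and 352.9 and Brg1+/+ 387.0 and 404.3. In mTEClo the site was also open, with 250.4 and 271.5 in Aire-/- and 290.0 and 329.2 in Aire+/+, so both Aire-/- mTEChi libraries were the lowest of all 16.

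Another strong site, chr11:54911112-54911611, had 141.1 and 244.9 in Aire-/- and 315.1 and 450.4 in Aire+/+ (log2 fold change -1.01, SE 0.22). Its 4 Brg1-line mTEChi libraries lay between 354.2 and 482.3, and its mTEClo values were 290.5 and 301.0 in Aire-/- and 283.8 and 296.1 in Aire+/+. Again the Aire-/- mTEChi pair was below every other library.

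Regions called more open in mTEChi in Brg1+/+ cells also appeared on this side. At chr11:80597633-80598132, Aire-/- mTEChi had 63.2 and 73.2, against 197.0 and 166.3 in Aire+/+ mTEChi (log2 fold change -1.40, SE 0.28). Brg1-/- gave 152.6 and 147.9 and Brg1+/+ 176.9 and 186.0, so the 6 other libraries fell in a narrow range. In mTEClo the same region had 38.5 and 21.3 in Aire-/- and 32.3 and 62.9 in Aire+/+, which overlap.

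chr8:94053561-94054060 had 68.5 and 65.7 in Aire-/- and 186.1 and 156.6 in Aire+/+ (log2 fold change -1.33, SE 0.29), with 116.9 and 117.0 in Brg1+/+. chr1:137077387-137077886 had 49.5 and 38.6 in Aire-/- and 140.0 and 182.4 in Aire+/+ (log2 fold change -1.85, SE 0.37). At this region on chromosome 1, Brg1+/+ replicate 2, at 61.8, came near the Aire-/- values although replicate 1 was at 150.8.

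At chr6:49186219-49186718, Aire-/- mTEChi had 58.6 and 82.4, and Aire+/+ mTEChi 136.8 and 278.9 (log2 fold change -1.48, SE 0.29). The Brg1 line was high in both sorts, between 189.2 and 380.9, whereas Aire-line mTEClo had 119.0 and 94.5 in Aire-/- and 73.7 and 175.0 in Aire+/+. The mTEClo genotypes therefore overlapped at a low level.

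The remaining lower regions were weaker. The largest drop on the log2 scale was at chr1:93873669-93874168, with 0.77 and 1.49 in Aire-/- and 33.6 and 53.2 in Aire+/+ (-4.36, SE 0.90), followed by chr16:7897354-7897853 with 0.83 and 2.00 in Aire-/- and 32.2 and 52.3 in Aire+/+ (-4.16, SE 0.91). At both, Brg1+/+ gave 8.39 to 9.98, nearer on the signal scale to Aire-/- than to Aire+/+. With 0.5 or 5 added to the signal in place of 1, the log2 fold changes were -4.75 and -2.95 at chr1:93873669-93874168. They were -4.51 and -2.85 at chr16:7897354-7897853. The chromosome 1 region lies in the window chr1:93000001-94000000 described below, where Aire+/+ replicate 2 was the highest mTEChi library at 55.6% of members.

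The 24 regions were set beside the other groups. Both Aire-/- libraries lay outside all 6 other mTEChi libraries at 8 of 12 higher and 12 of 12 lower regions. Over all members, they lay above all 6 at 13337 of the 40651 regions where they were above both Aire+/+ libraries. They lay below all 6 at 7519 of the 41288 where they were below both. The Brg1+/+ mean, on the log2 scale, was between the Aire genotypes at 11 of 12 higher regions, and nearer to Aire-/- at 9. It was between them at 8 of 12 lower regions, and nearer to Aire-/- at 0. The shares of all members with these positions are not given here, so the counts describe the 24 regions alone. By calls in Brg1+/+ cells, regions more open in mTEChi than in mTEClo made up 5 of 12 in each direction. Regions more open in mTEClo made up 0 of 12 in each. These classes hold 8.36% and 3.21% of all members. Among members that met both conditions of the choice, mean and non-overlap, the classes held 17.2% and 2.11% of those higher in Aire-/- and 13.1% and 5.74% of those lower. In mTEClo, the sign of the Aire difference was the same at 8 of 12 higher and 11 of 12 lower regions, with 0 of 24 at an unadjusted p under 0.05; over all members, 51.9% had the same sign in both sorts.

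As a wider description, each genotype was asked how often both of its libraries lay outside all 6 others. Aire-/- mTEChi lay above all others at 13337 members (6.15%) and below at 7519 (3.47%). Aire+/+ did so at 11303 (5.21%) and 7112 (3.28%), Brg1-/- at 11898 (5.49%) and 8960 (4.13%), and Brg1+/+ at 3015 (1.39%) and 12294 (5.67%). Members were admitted on the 4 Aire-line libraries alone, which favours Aire-line groups above the rest and Brg1-line groups below it. Over all 250313 regions, a setting added after the data were seen, the shares above and below were 5.40% and 3.87% for Aire-/-, 4.64% and 3.53% for Aire+/+, 7.01% and 3.69% for Brg1-/- and 1.59% and 5.15% for Brg1+/+, so Brg1-/- and not Aire-/- was then most often above the others. In the decile of members with the highest mean over the 8 libraries, Aire-/- gave 7.16% above and 6.21% below, Aire+/+ 3.64% and 3.81%, Brg1-/- 6.52% and 7.42%, and Brg1+/+ 2.60% and 2.77%. Differences between these shares were not tested.

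Median differences between the Aire genotypes were set against how open a region was in another line. Members were put into deciles by their mean in Brg1+/+ mTEChi, which took no part in the contrast. The median log2 fold change was -0.45 in the lowest decile, -0.30 in decile 2, 0.01 in decile 5, 0.18 in decile 8 and 0.03 in the highest. Aire+/+ replicate 2 moved with this gradient. In the lowest decile the median log2 signal was 3.15 and 3.29 in Aire-/-, against 3.38 and 4.03 in Aire+/+, and in decile 8 it was 5.10 and 5.00 in Aire-/-, against 4.99 and 4.84 in Aire+/+. Without that library the medians ran from -0.16 in the lowest decile to 0.08 in decile 7. The threshold also bears on the low deciles, because a region weak in Brg1+/+ is a member only where an Aire-line library is high, and more members were kept through Aire+/+ alone than through Aire-/- alone. With deciles of all 250313 regions, added after the data were seen, the median was -0.37 in the lowest, of which 64.4% were members, and 0.17 in decile 8; without Aire+/+ replicate 2 these were -0.19 and 0.07.

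**Figure D2:**
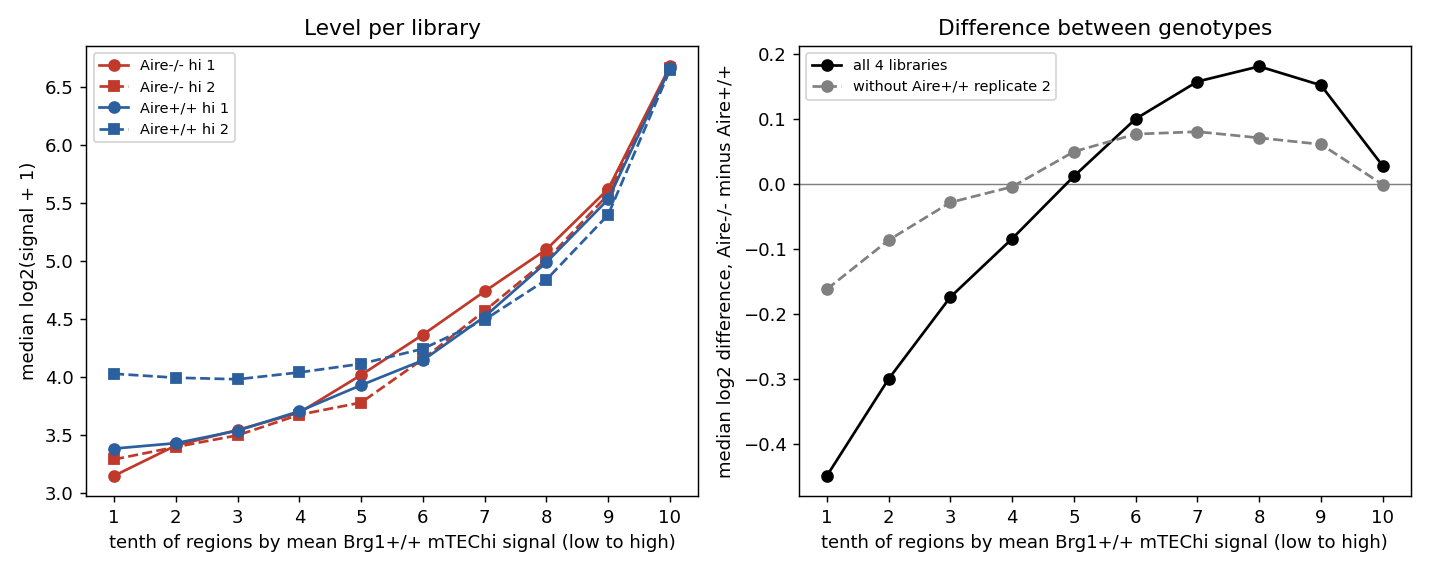
Median log2(signal + 1) per Aire-line mTEChi library (left) and median log2 difference, Aire-/- minus Aire+/+ (right), in deciles of members by mean Brg1+/+ mTEChi signal. Aire+/+ replicate 2 stays near 4 over the 5 lowest deciles, and the difference between the genotypes lies closer to 0 without it (grey) in every decile but the fifth.

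Regions at an unadjusted p under 0.05 followed the same order. Of the lowest decile, 1.23% of regions were higher in Aire-/- and 5.20% lower, and of decile 9 6.90% and 2.67%. Without Aire+/+ replicate 2 the shares were 1.10% and 2.29% in the lowest decile and 6.25% and 2.42% in decile 9, where all members gave 3.84% and 2.20%. In decile 9 the share of higher regions thus exceeded that of lower regions with and without that library, and in the lowest decile the share of lower regions was 5.20% with it and 2.29% without it. The highest decile gave 5.14% higher and 4.14% lower with all libraries.

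Regions that distinguish the sorts were taken from the Brg1 line alone. In Brg1+/+ cells 18125 members (8.36%) were called more open in mTEChi and 6971 (3.21%) in mTEClo. At mTEChi-higher regions the median log2 fold change of Aire-/- against Aire+/+ mTEChi was 0.18, at mTEClo-higher regions -0.15 and at unclassed regions -0.02. An unadjusted p under 0.05 was reached by 8.78% of mTEChi-higher regions with higher and 3.90% with lower signal in Aire-/-, by 1.69% and 4.07% of mTEClo-higher regions, and by 3.49% and 3.39% of unclassed regions. Leaving out Aire+/+ replicate 2 gave 7.45% and 3.14%, 2.38% and 3.18%, and 3.55% and 2.08% in the same order, with median log2 fold changes of 0.08, -0.16 and 0.01.

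Per library, the median of mTEChi-higher regions stood above that of unclassed regions by 1.25 and 1.29 log2 units in Aire-/- and by 1.22 and 0.75 in Aire+/+, or 1.27 ± 0.03 and 0.98 ± 0.33 (SD, n = 2 each). The difference of 0.29 rested on Aire+/+ replicate 2, without which it was 0.05. At mTEClo-higher regions the values were 0.03 and 0.48 in Aire-/- and 0.48 and 0.34 in Aire+/+, or 0.26 ± 0.31 and 0.41 ± 0.10 (SD, n = 2 each). That difference, -0.15, rested on Aire-/- replicate 1, without which it was 0.07. With 2 libraries against 2 an exact two-sided permutation test cannot give a p below 0.333, so that test could pass neither shift, and no other test of them was run.

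**Figure D3:**
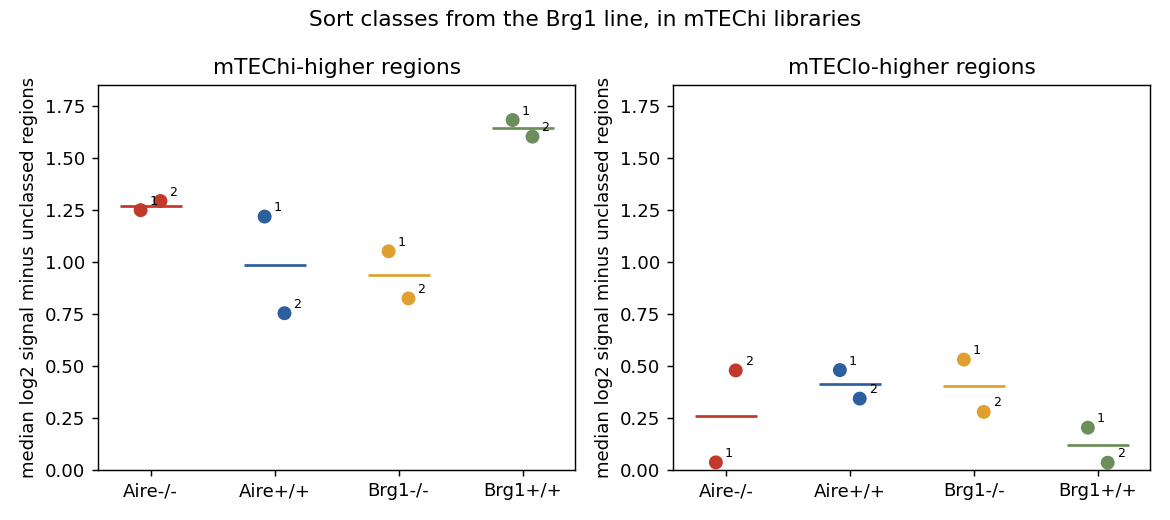
Median log2(signal + 1) at regions more open in mTEChi (left) or in mTEClo (right), minus the median at unclassed regions, for each mTEChi library (points, numbered by replicate) with the mean of each genotype (lines). Classes were called in the Brg1 line, so the Brg1 points are shown for scale; the Aire-/- points overlap those of Aire+/+ on the right, and on the left Aire+/+ replicate 2 lies well below the other Aire-line libraries.

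Replicates were then asked whether they gave the same differences. The Aire difference was computed from replicate 1 of each genotype and, separately, from replicate 2 of each, so that these estimates shared no library. Across 216911 members they correlated with r = 0.13, and 53.3% of regions had the same sign; with the replicates crossed, r was 0.10 and 53.4% had the same sign. In the decile of highest mean over the 4 libraries r was 0.10 and 0.18. The same calculation gave r of 0.03 and -0.0026 for Aire in mTEClo and 0.05 and 0.05 for Brg1 in mTEChi. Regions share their libraries, so these are descriptions of likeness with no test.

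Regions at an unadjusted p under 0.05 were placed against the other wild type in the same way. The 8410 higher regions had a median of 0.83 for Aire-/- minus Brg1+/+ and -0.90 for Aire+/+ minus Brg1+/+, and the 7496 lower regions -0.91 and 1.08, where all members gave 0.23 and 0.24. Both Aire genotypes thus stood on opposite sides of Brg1+/+ at the median. Measured from the medians of all members, their distances were unlike. Aire+/+ lay further off than Aire-/- at the higher regions, and Aire-/- lay further off than Aire+/+ at the lower regions. These sets were chosen on the Aire difference, and the Brg1+/+ libraries entered the choice through the estimated variance, so the place of Brg1+/+ is a description too. In mTEClo their median log2 fold changes were 0.07 and -0.08, and 55.4% and 55.9% of them had the same sign as in mTEChi, against 51.9% of all members.

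In mTEClo, Aire-/- and Aire+/+ were compared at the same members. No region was called there either (0%, smallest adjusted p = 0.477 in limma), although 33 were without Aire+/+ mTEClo replicate 1 and 25 without Aire-/- mTEClo replicate 1, and 8798 (4.06%) had an unadjusted p under 0.05. The log2 fold changes of the sorts, which share no library, correlated with r = 0.04 over 216911 members. A test of the difference between the sorts called 1 member (0.000461%), and 11397 (5.25%) had an unadjusted p under 0.05.

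That member was chr2:77823875-77824374. It had 4.30 and 2.12 in Aire-/- mTEChi, against 18.1 and 24.5 in Aire+/+ mTEChi, while in mTEClo it had 8.31 and 13.9 in Aire-/-, against 1.21 and a listed 0 in Aire+/+. The Aire difference was -2.44 in mTEChi and 2.99 in mTEClo on the log2 scale, so the difference between the sorts was -5.43 (SE 0.79, adjusted p = 0.0143 in limma). All 8 Brg1-line libraries were far higher, between 74.4 and 331.0. The Aire-/- values of 4.30 and 2.12 in mTEChi and 8.31 in mTEClo are listed identically at chr13:105532912-105533411. They are thus low values that are not particular to the chromosome 2 region. The call was lost without replicate 2 of any of the 4 Aire-line groups, including the library listed at 0.

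The region lies in a stretch where the Aire line as a whole is low. Between 77 and 78 Mb of chromosome 2, 143 members had a median log2 difference of -2.04 for Aire-/- against Brg1+/+ mTEChi and of -0.38 for Aire-/- against Aire+/+ mTEChi. In an alternative added after the data were seen, Aire-/- against the mean of both wild types called 42 regions (0.0194%), 4 higher and 38 lower, of which 30 lay in that stretch. Outside it, 12 regions were called, including 5 of those described above: chr7:135754449-135754948 (adjusted p = 0.000654), chr6:49186219-49186718 (0.00320), chr8:45541562-45542061 (0.00482), chr11:80597633-80598132 (0.0116) and chr11:54911112-54911611 (0.0116). These 5 had been picked for the difference between Aire-/- and Aire+/+, and the same libraries enter this contrast, so their calls are no separate support. Another of the 12, chr13:105532912-105533411, had 2.12 to 18.0 in Aire-line mTEChi and 62.4 to 125.6 in Brg1-line mTEChi. Brg1+/+ also differs from Aire-/- in mouse line, and the line and the genotype cannot be told apart in a comparison with Brg1+/+.

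Brg1, the ATPase of SWI/SNF chromatin remodelling complexes, had 14987 members (6.91%) at an unadjusted p under 0.05 in mTEChi and 1 region called (0.000461%). This was chr11:96995453-96995952, with 12.9 and 24.1 for Brg1-/-, against 92.7 and 170.3 for Brg1+/+ (log2 fold change -2.76, adjusted p = 0.00582 in limma), a call lost without either Brg1+/+ library; 5 and 7 regions were called without Brg1-/- replicate 1 and replicate 2. It had 157.7 and 225.0 in Aire-/- mTEChi and 132.5 and 125.7 in Aire+/+ mTEChi, non-overlapping with a log2 fold change of 0.54. The Aire and Brg1 log2 fold changes in mTEChi, which share no library, correlated with r = -0.09 across members, and 47.3% had the same sign.

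Signal was also summed in fixed windows of 1 Mb with at least 5 members (2442 windows, median 79 members). Of these, 4 were called (0.164%), all lower in Aire-/-, and 124 (5.08%) had an unadjusted p under 0.05; in mTEClo 0 windows were called between the Aire genotypes, and 1 (0.041%) was called for Brg1 in mTEChi. The window chr4:146000001-147000000 had summed signals of 742 and 1226 in Aire-/- mTEChi, against 1515 and 3470 in Aire+/+ mTEChi (log2 fold change -1.26, SE 0.24, adjusted p = 0.000347 in limma), and 76 of its 82 members were lower. The window chr1:93000001-94000000, which held more members than any other window, had 7302 and 7948 in Aire-/- and 9242 and 15340 in Aire+/+ (-0.64, SE 0.13, adjusted p = 0.00079), with 348 of 437 members lower. On chromosome X, 4000001 to 5000000 had 127 and 351 in Aire-/-, against 380 and 1523 in Aire+/+ (-1.84, adjusted p = 0.000518).

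The last, on chromosome X from 32000001 to 33000000, had 126 and 396 in Aire-/- and 473 and 1084 in Aire+/+ (-1.67, adjusted p = 0.00333). In all 4 the groups did not overlap and Aire+/+ replicate 2 was the highest library, at 1.66 to 4.01 times the next highest mTEChi library. Without it none was called, and the smallest adjusted p over all windows was 0.998. In mTEClo the same windows had log2 fold changes between -0.08 and 0.02. Replicate 2 was also above replicate 1 in the other Aire-line groups in all 4 windows. In the chromosome 4 window, for example, mTEClo had 1012 and 1745 in Aire-/- and 913 and 1957 in Aire+/+. The windows' variances were moderated almost to a common value. In simulated data with 200 of 2442 windows changed, 9.19% of unchanged windows had an unadjusted p under 0.05, and 27 were called. The p-values were thus too small in that setting. The 27 cannot be set against the 4 called here, because 200 changed windows loosen the adjusted threshold. In the real data 5.08% of windows had an unadjusted p under 0.05. The window p-values may still be too small, and the 4 calls are given as descriptions.

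**Figure D4:**
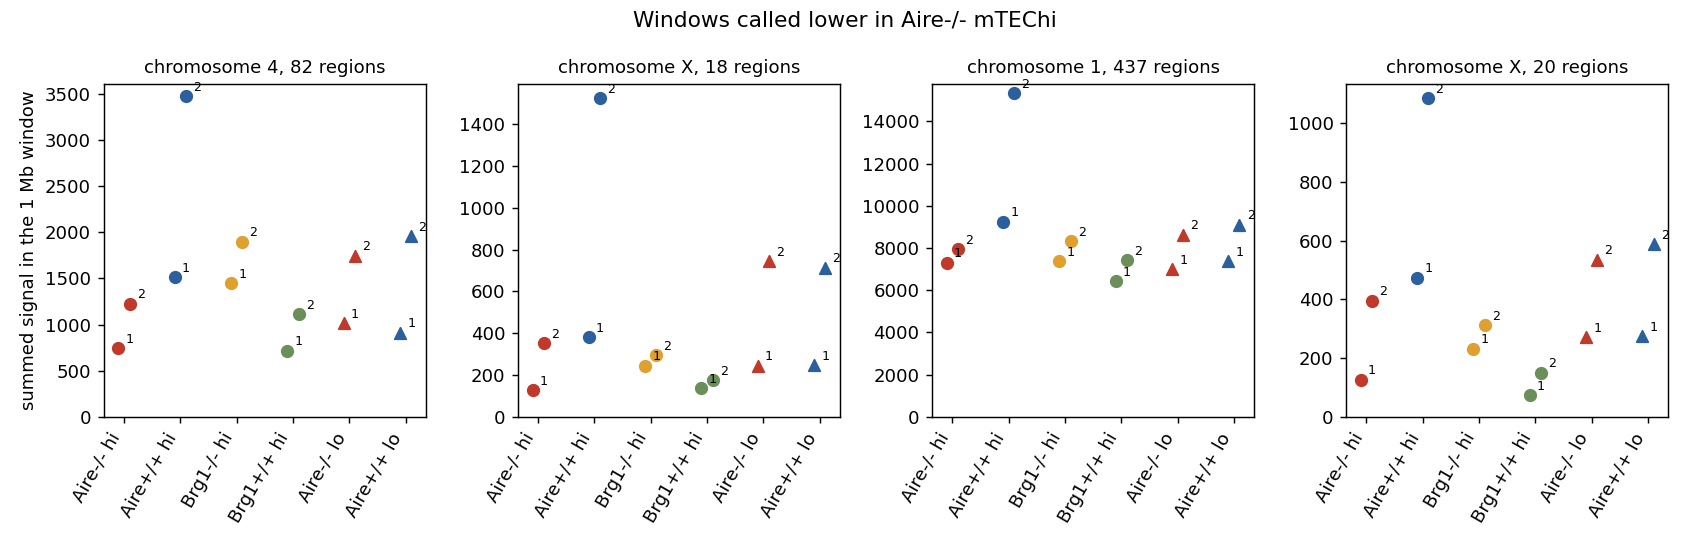
Summed signal of member regions (y axis, linear, from 0) in the 4 windows of 1 Mb called lower in Aire-/- mTEChi, for each mTEChi library (circles) and each Aire-line mTEClo library (triangles), numbered by replicate. In every panel Aire+/+ mTEChi replicate 2 is the highest point.

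Windows with the smallest p that were not called included chr7:149000001-150000000, with 3384 and 4029 in Aire-/- and 4877 and 5361 in Aire+/+ (log2 fold change -0.47, adjusted p = 0.145 in limma), where 123 of 160 members were lower. There the Brg1-/- libraries, 5036 and 5215, and the Brg1+/+ libraries, 4534 and 4477, were also above Aire-/-. On the higher side, chr10:122000001-123000000 had 5701 and 4078 in Aire-/- and 3567 and 3841 in Aire+/+ (0.38, adjusted p = 0.866), and Aire-/- replicate 2 lay below the Brg1-/- values of 4165 and 4328. Across the 2442 windows, the Aire log2 fold changes in mTEChi and mTEClo correlated with r = 0.28. The Aire and Brg1 log2 fold changes in mTEChi correlated with r = -0.18 over the same windows. Both are descriptions with no test.

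Aire-/- replicate 1 stood apart at this scale. Its summed window signals, as log2 values, correlated with those of the other 7 mTEChi libraries with r between 0.967 and 0.979. In the quintile of windows with the fewest members, its median was 0.57 log2 units above Aire-/- replicate 2, and in the quintile with the most members 0.18 below (-0.18). Without Aire-/- replicate 2, 426 windows were called, 243 higher and 183 lower in Aire-/-; without Aire-/- replicate 1 there were 2 and without Aire+/+ replicate 1 there were 6.

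Chromosome levels showed the same library. Mean signal on chromosome X relative to the autosomes was 1.13 and 0.70 in Aire-/- mTEChi, against 0.76 and 0.97 in Aire+/+ mTEChi, so the spread within each genotype was wider than the distance between them. The Brg1-line mTEChi libraries gave 0.84 to 0.88, and in mTEClo the ratio was 0.86 and 1.12 in Aire-/- and 0.82 and 1.02 in Aire+/+. On chromosome 11 the mean relative to all members was 0.97 and 1.24 in Aire-/- and 1.19 and 1.13 in Aire+/+. Leaving chromosome X out of the region test gave 0 calls, as before.

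**Figure D5:**
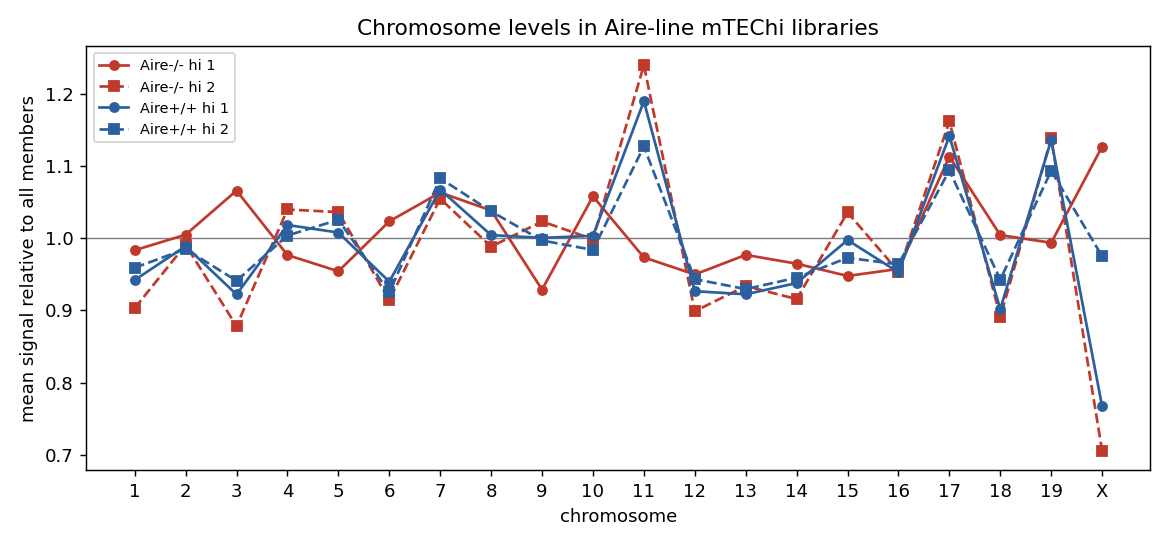
Mean member signal of each chromosome relative to the mean of all members (y axis), in the 4 Aire-line mTEChi libraries. Aire-/- replicate 1 departs from the other libraries on chromosomes 3, 11, 19 and X, and the replicates of each genotype differ by more than the genotypes do on chromosome X.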

How the data were processed

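Signal values per region were deposited by the authors as 1 table for 16 libraries, made from 60000 sorted cells per reaction per the labels. Per the submitters' processing notes, Bowtie2, MACS2 and the mm9 build were used, with versions, region definition, Tn5 offset and scaling of the signal not given in the sources used here. These values as deposited are not whole counts, so no count model was used and depth is unknown.

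Signal was analysed as log2(signal + 1), a scale that understates changes of weak regions. limma 3.58.1 in R 4.3.3 fitted 1 mean per group to the 8 mTEChi libraries (4 residual degrees of freedom), with trended, robust variances, and p-values were adjusted by Benjamini-Hochberg over all 216911 members, two-sided, at 0.05. mTEClo was fitted likewise, and the difference between sorts was tested over 16 libraries with a variance weight per sort. Windows used log2 of the summed signal. Sort classes came from the 8 Brg1-line libraries. Named regions were, per direction, up to 12 called regions, filled by the smallest p, with non-overlapping genotypes and a mean at or above the median member; up to 5 windows followed the same rule, and called windows were added. The procedure was tested on simulated data with 200 changed regions drawn from the upper part of the range of mean log2 signal, where 1 of the unchanged regions was called. Figures were drawn with matplotlib 3.10.9. Members, classes and tests were chosen with earlier results of these data known. Gene lists were not run, since regions were not linked to genes.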

Additional observations from a re-analysis of the deposited data

Results flagged for a closer look

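The Aire difference at chr2:77823875-77824374 gave -5.43 log2 units for mTEChi minus mTEClo (SE 0.79, adjusted p = 0.0143 in limma, over 216911 members), and was picked out because the test of the difference between the sorts called it. Signal was 4.30 and 2.12 in Aire-/- mTEChi against 18.1 and 24.5 in Aire+/+ mTEChi, and 8.31 and 13.9 in Aire-/- mTEClo against 1.21 and a listed 0 in Aire+/+ mTEClo, so the genotypes did not overlap in either sort and their order was opposite. All of these are low beside the 74.4 to 331.0 of the Brg1 line. The values 4.30, 2.12 and 8.31 are listed identically for the same libraries at chr13:105532912-105533411. The opposite order thus rests on low values that recur elsewhere, and whether they measure openness here was not tested. Leaving out any 1 of 4 libraries, replicate 2 of each Aire-line group, ended the call.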

How the results depend on the processing

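For regions, 18 alternatives gave 0 calls like the main test, among them pseudocounts of 0.5 and 5, other filters, quantile, loess and median scaling, array weights and fewer libraries in the fit. All 16 libraries with 1 variance gave 49. Chosen after seeing the data, the mean of both wild types gave 42 and Brg1+/+ alone 93 calls. Leaving out 1 library gave 0 to 119. Window calls, 4 in the main test, numbered 0 under quantile normalization, 0 after re-centring, 0 with all 16 libraries, 5 with 100 kb windows and 0 to 426 with 1 library left out; chosen after seeing the data, mean log2 signal gave 9 (7 higher) and the mean of both wild types 1. The difference between sorts gave 0 to 27 calls, mTEClo 0 to 33 and Brg1 0 to 7 with 1 library left out, and Brg1 60 with all 16 libraries. The cause of these changes was not tested. The median log2 fold change and both class shifts moved by less than the replicate SD (0.15, 0.23 and 0.23) under each alternative run. For the class shifts, leaving out 1 of 2 libraries cannot move the value by more than this SD. Those settings were therefore no test of stability. Without Aire-/- replicate 1 the mTEClo-higher shift went from -0.15 to 0.07. The mTEChi-higher shift went from 0.29 to 0.52 without Aire+/+ replicate 1, and fell without Aire+/+ replicate 2. Deviations of same-numbered replicates correlated by at most 0.04 over regions between the Aire genotypes in mTEChi. This does not settle whether the numbers pair the samples. Zeros were listed only in replicate 2 of Aire+/+ mTEChi and of both Aire genotypes in mTEClo. In these groups replicate 2 also had the higher ratio of chromosome X to autosomes, while in Aire-/- mTEChi it had the lower. With the replicate number as a block, 0 regions and 0 windows were called. Read depth is unknown, and 2 libraries a group leave a median SE of 0.84.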
